A study of Mus musculus with 4 samples.

Results

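Mast cell-bearing spots were the capture spots of a spatial transcriptome that held RNA of the mast cell proteases Cpa3, Mcpt4, Cma1 and Tpsb2. The members were chosen by measured values: a spot was a member when it had at least 1000 unique molecular identifiers (UMIs, counts of captured RNA molecules) in all and a sum of at least 3 UMIs over these 4 genes. By that rule 678 of 10662 tissue spots were members: 266 of 3047 in WT 1, 162 of 2027 in WT 2, 104 of 2837 in F592A 1 and 146 of 2751 in F592A 2. A further 88 spots fell below 1000 UMIs, which left 10574 eligible spots. The members made up 6.41% of the eligible spots and held 16.5% of their UMIs. A spot covers a small area that can hold several cells of different types, so a member is a place with mast cell RNA and not a mast cell.

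The sections came from the injured Achilles tendon of male and female mice aged 12 weeks. All mice had received buprenorphine before a punch biopsy of 0.5 mm in the left tendon, about 2 mm above its attachment to the heel bone, and the tissue was taken on day 14 after surgery. WT 1 and WT 2 were TrkA WT sections labelled Control, and F592A 1 and F592A 2 were TrkA F592A sections labelled 1NMPP1, each cut at 10 µm from fresh frozen tissue. TrkA is the receptor kinase for nerve growth factor, and the F592A change makes it sensitive to the inhibitor 1NMPP1. Genotype and the drug label changed together, and it is not stated if WT animals were given 1NMPP1. The labels pool 4 mice per genotype without tying a section to an animal. The p-values therefore measure only the spread between sections. The WT sections differed in sex-linked RNA, as given below, and so came from different animals. The F592A sections may come from separate animals or from the same one.

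Mast cells are tissue-resident immune cells that lie along vessels, nerves and the connective tissue under the skin. Their granules hold proteases, histamine and heparin, which are released when IgE bound to the high-affinity receptor is crosslinked or when the receptor Mrgprb2 is engaged by peptides. The receptor Kit and its ligand, stem cell factor, keep them alive in tissue. Connective tissue mast cells of the mouse carry chymases and tryptases (Mcpt4, Cma1, Tpsb2) and carboxypeptidase A3, whereas mucosal mast cells are known for Mcpt1 and Mcpt2.

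The promoters of a rule gene and of the genes for the alpha and beta chains of the IgE receptor are shown. GATA2 is a known regulator of mast cell genes, and the levels of these genes in the members are described below. Each sequence spans 250 bases before to 50 after the gene start in RefSeq (build GRCm38.p6), read 5′ to 3′ on the gene's strand, with each match of GATA or its reverse complement TATC in capitals. Cpa3 lies at chr3:20242132-20242431, Fcer1a at chr1:173227180-173227479 and Ms4a2 at chr19:11623670-11623969, all 3 on the minus strand.
Cpa3: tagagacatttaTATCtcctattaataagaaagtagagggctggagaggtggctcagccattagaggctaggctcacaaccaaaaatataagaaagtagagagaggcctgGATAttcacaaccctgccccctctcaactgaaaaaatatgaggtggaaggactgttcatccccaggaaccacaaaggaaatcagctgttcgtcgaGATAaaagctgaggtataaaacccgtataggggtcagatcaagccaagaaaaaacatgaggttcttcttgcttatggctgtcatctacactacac
Fcer1a: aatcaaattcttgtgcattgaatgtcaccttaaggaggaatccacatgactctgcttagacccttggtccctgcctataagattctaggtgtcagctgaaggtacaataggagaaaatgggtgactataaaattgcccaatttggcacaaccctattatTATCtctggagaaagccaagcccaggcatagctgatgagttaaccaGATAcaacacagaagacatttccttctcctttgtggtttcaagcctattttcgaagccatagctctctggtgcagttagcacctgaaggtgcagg
Ms4a2: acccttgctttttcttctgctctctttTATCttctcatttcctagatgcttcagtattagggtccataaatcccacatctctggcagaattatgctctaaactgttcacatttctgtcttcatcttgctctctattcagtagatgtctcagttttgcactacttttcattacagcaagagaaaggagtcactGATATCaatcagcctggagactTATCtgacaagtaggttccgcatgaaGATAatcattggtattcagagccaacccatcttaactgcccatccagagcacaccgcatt
The Cpa3 window held 3 matches, the Fcer1a window 2 and the Ms4a2 window 5, of which the GATA and TATC in the middle of the window overlap each other. Of the other mast cell genes searched, Cma1 and Mrgprb1 had 3 each, Mcpt4 had 1 and Kit had 0. At least 1 match was present in 57.9% of 32851 promoters of 300 bases, so holding the motif does not set these genes apart. A match is a description of the letters and not of a bound site.

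The sections held 30154873 to 43957617 UMIs. WT 2 stood apart from the other sections in its sex-linked RNA: Xist, the RNA of the inactive X chromosome, gave 4207 UMIs there and 7 to 12 elsewhere, while the Y-linked genes gave 23 UMIs there and 7522 to 7918 elsewhere. WT 2 thus held the RNA of a female and the other sections that of males. Sex was therefore not balanced between the groups, and its part in the group comparisons was not tested. Each pair of libraries shared 994 to 2429 spot barcodes, all with the same grid address, as barcodes on these arrays are positions and not cells. Of the barcodes shared by a pair, 3 to 39 marked a member in both sections.

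Within the members the 4 rule genes are described without a test, since they chose the members. In every section the median member held a sum of 5 UMIs. The sum was exactly 3 in 207 members, 4 to 9 in 279 and 10 or more in 192. Just inside the rule, at a sum of 3, stood 89 and 38 spots of the WT sections and 39 and 41 of the F592A sections (number 1 before 2). Just outside it, at a sum of 2, stood 138, 126, 68 and 100 eligible spots in the same order. The members held 82.7%, 77.1%, 67.0% and 74.1% of their section's rule gene UMIs.

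The make-up of the rule gene UMIs in members was alike in the 4 sections. The chymase Mcpt4 gave 35.8% to 37.5% of them, the chymase Cma1 29.1% to 31.3%, the tryptase Tpsb2 20.1% to 23.7% and the carboxypeptidase Cpa3 9.01% to 13.0%, as shares of UMIs and not of RNA per gene length. All 4 genes were present together in 178 of 678 members and in 134 of the 192 with a sum of at least 10. The other members rested on fewer of the genes, and 59 of them on a single gene.

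The highest sum of a single spot was 507, 123, 53 and 162 UMIs (WT 1, WT 2, F592A 1, F592A 2). The WT 1 spot held 194 Mcpt4, 174 Cma1, 76 Cpa3 and 63 Tpsb2 UMIs among 24600 UMIs in all. It also held 10 UMIs of Fcer1a, 8 of Mrgprb1 and 3 each of Kit, Ms4a2 and Hdc. Its 6 adjacent spots had sums of only 2 to 8, far below its own. In whole sections the 4 genes together stood at 106 and 84.0 CPM (counts scaled to 1000000 UMIs) in WT 1 and WT 2 and at 27.9 and 66.9 CPM in F592A 1 and F592A 2. Without the highest spot of each section these levels were 93.9, 80.0, 26.7 and 62.6 CPM. Both WT sections lay above both F592A sections either way.

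**Figure D1:**
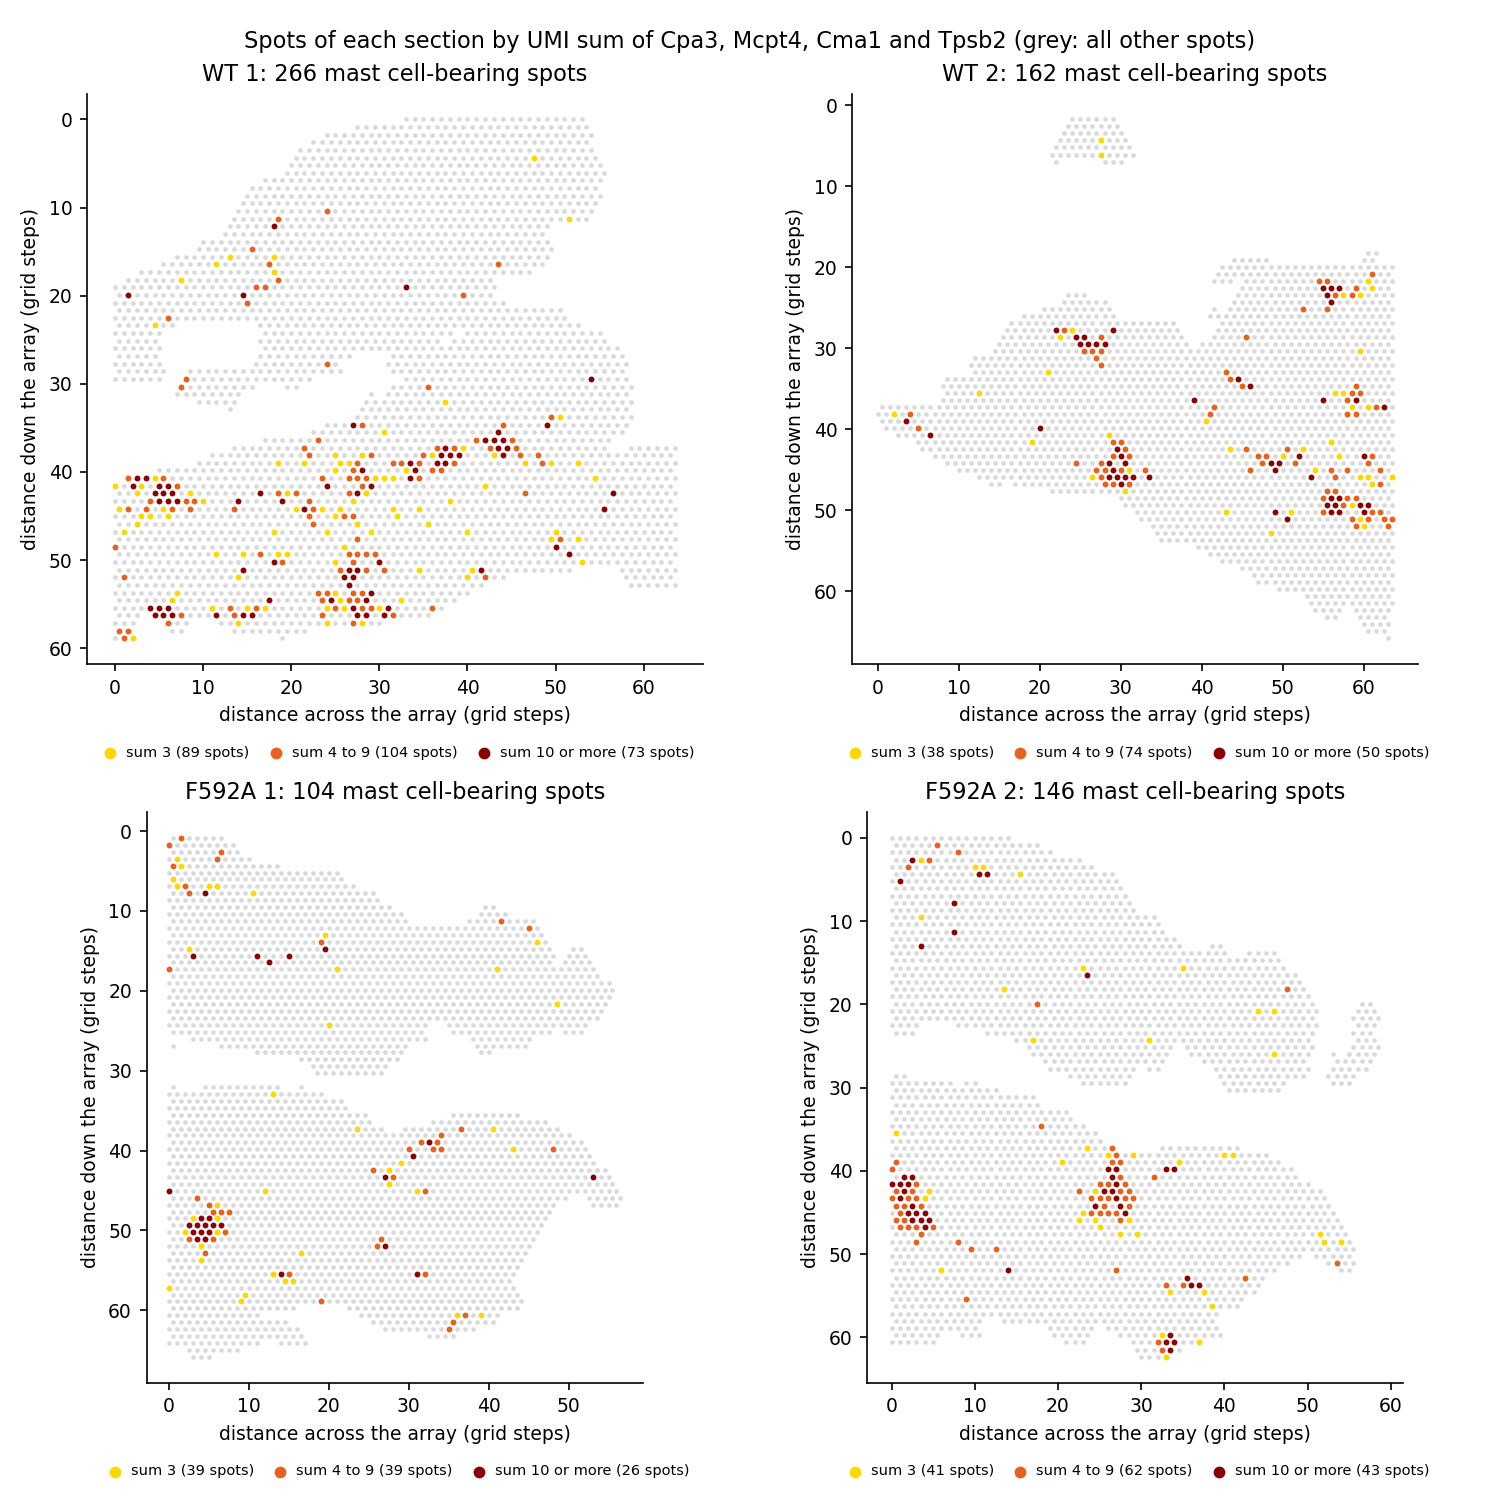
Maps of the 4 sections, in grid steps across and down the array, with each tissue spot as a point. Grey points are spots outside the rule, and coloured points are members with a sum of 3, of 4 to 9 or of 10 or more rule gene UMIs. The 266, 162, 104 and 146 members lie in patches with scattered single spots between them.

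Members lay next to each other. In WT 1 and WT 2, 82.0% and 83.3% of members had an adjacent member, and in F592A 1 and F592A 2 it was 71.2% and 74.0%. Among eligible spots adjacent to a member, 26.3%, 27.2%, 18.9% and 23.5% were members themselves (WT 1, WT 2, F592A 1, F592A 2). Among spots with no adjacent member it was 2.20%, 1.80%, 1.24% and 1.66%. The members formed 77, 45, 46 and 50 patches, of which 48, 27, 30 and 38 were single spots. The largest patch of each section held 44, 27, 27 and 39 members. Neighbouring spots, the eligible non-members within 2 grid steps of a member, were themselves deeper than the rest, with medians of 9710, 10000, 5748 and 7722 UMIs, and the part of depth in this layout was not tested.

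Members made up 8.84% of eligible spots in WT 1 (95% exact binomial interval 7.85% to 9.91%), 8.10% in WT 2 (6.94% to 9.38%), 3.69% in F592A 1 (3.02% to 4.45%) and 5.32% in F592A 2 (4.51% to 6.22%). Both WT shares lay above both F592A shares, at 8.47 ± 0.525% against 4.50 ± 1.15% (mean and SD, n = 2 sections each). The intervals cover counting error only, and 2 sections against 2 allow no exact permutation p under 0.33, so no test was made. Fewer mast cells and less protease RNA in each of them cannot be told apart in such spots.

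The rule favours deep spots. The median member held 17594.5, 23416.5, 14214 and 26834 UMIs (WT 1, WT 2, F592A 1, F592A 2), against 5629.5, 7327.5, 5404 and 6318.5 in the other eligible spots. Thinned by calculation to 1000 UMIs per spot, 7.39% and 7.33% of WT 1 and WT 2 spots would hold at least 1 rule gene UMI, against 3.59% and 4.93% in F592A 1 and F592A 2. The unthinned shares with at least 1 such UMI were 30.3%, 30.8%, 15.6% and 25.1%. At 2000 UMIs the thinned shares were 12.1%, 12.3%, 5.94% and 8.64%, after leaving out 422, 263, 323 and 56 shallower spots. At 5000 UMIs they were 21.6%, 22.3%, 10.4% and 15.8%, after leaving out 1229, 707, 1286 and 909 spots. The order of the groups was the same at each of the 3 depths.

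Among the deepest spots the order differed. Of spots with at least 20000 UMIs, 21.0%, 21.8%, 11.1% and 27.8% were members in the same order of sections, so the highest share was in an F592A section. From 10000 to 20000 UMIs the shares were 17.3%, 9.31%, 5.25% and 5.72%, and from 5000 to 10000 UMIs 5.77%, 5.98%, 2.38% and 1.98%, with WT above F592A in both. Below 5000 UMIs they were 2.20%, 0.707%, 1.87% and 1.43%, and the groups overlapped.

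**Figure D2:**
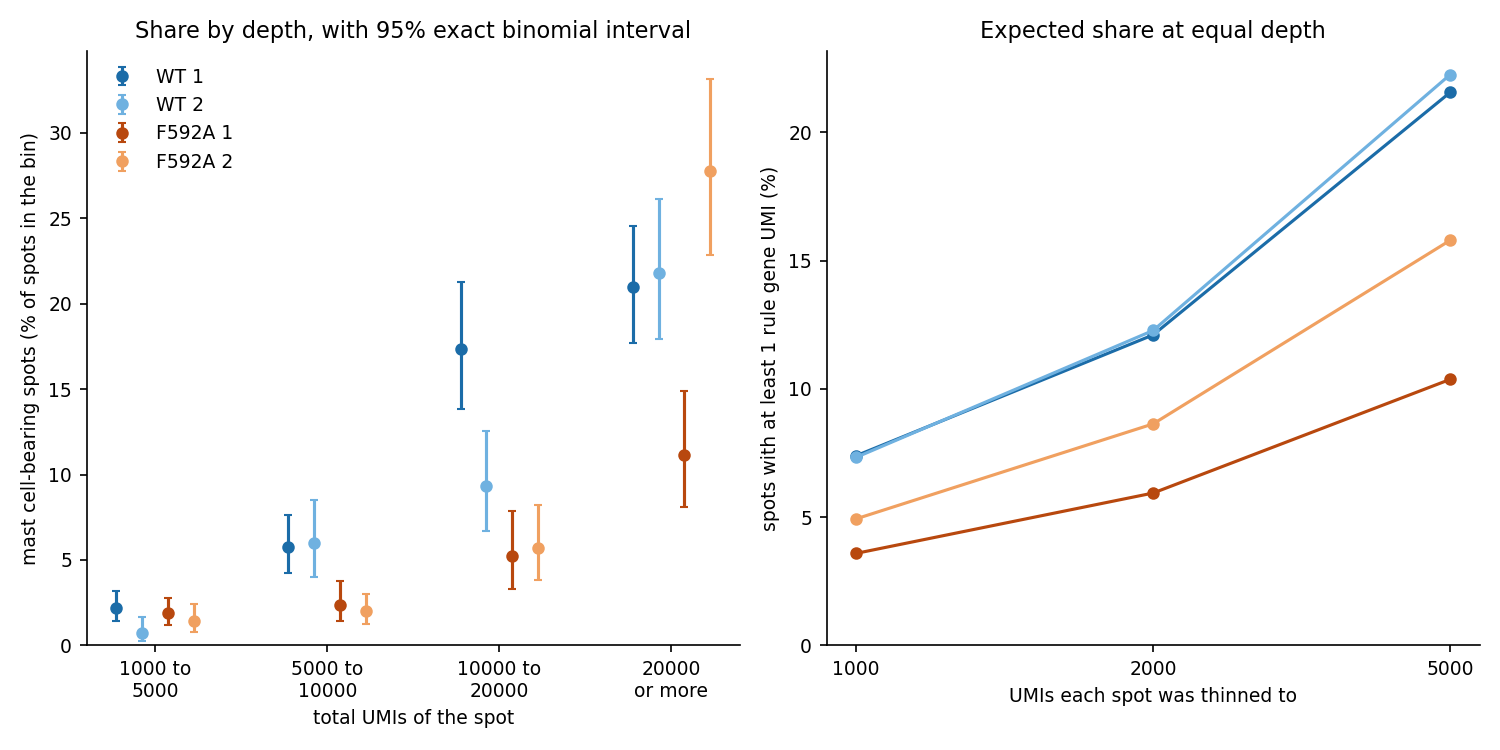
Left, the share of spots that were members (%) in 4 ranges of total UMIs per spot, with 95% exact binomial intervals, for each section. Right, the expected share of spots with at least 1 rule gene UMI (%) after thinning to 1000, 2000 or 5000 UMIs. Spots below that depth are left out. WT lies above F592A at each thinned depth, while F592A 2 has the highest share, 27.8%, among spots of at least 20000 UMIs.

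Strong members differed in depth between the groups. Members with a sum of at least 10 had a median of 24284 and 28287 UMIs in WT 1 and WT 2 and of 65769 and 64846 UMIs in F592A 1 and F592A 2. Per spot they held 40.0, 29.0, 18.5 and 31.7 rule gene UMIs (WT 1, WT 2, F592A 1, F592A 2). They made up 73, 50, 26 and 43 of the members. The F592A spots thus held fewer rule gene UMIs per UMI of all genes, at 211 and 366 CPM, than the WT spots, at 1089 and 894 CPM.

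The label of the members was checked on mast cell genes outside the rule, in members against neighbouring spots. There were 3462 neighbouring spots. In this comparison edgeR's quasi-likelihood test called 217 of 14646 genes higher in members (1.48%) and 99 lower (0.676%), 2.16% in all, at a Benjamini-Hochberg adjusted p under 0.05. Of 13 tested mast cell receptor genes 4 rose, of 10 mediator genes 1, and of 6 regulators and 7 niche genes 0. Of 8 further proteases only 2 were tested, and both rose. No such gene fell. Fcer1a, Ms4a2, Cd200r3, Tpsab1 and Tpsg1 were so low in neighbouring spots that the low-count filter kept them through their member sums. Their calls were thus favoured in advance and are given as a description. The median log2 fold change was 0.60 over the receptors, 0.58 over the mediators and 0.12 over the regulators, against −0.00 over all genes. At an unadjusted p under 0.05, edgeR had 2767 genes, and DESeq2 called 442 at its adjusted p.

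The calls of this comparison rested on single sections. No gene passed without F592A 1 (2260 at an unadjusted p under 0.05), 6 passed without WT 2, 75 without F592A 2 and 477 without WT 1. Without the section block, 0 passed by edgeR (1507 at an unadjusted p under 0.05). Every mast cell gene called below kept its direction in each of these fits in which it was tested.

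By fold change the alpha and beta chains of the high-affinity IgE receptor stood first among the genes of the mast cell lists. Fcer1a, its IgE-binding alpha chain, stood at 3.29 CPM in WT 1 members, 2.78 in WT 2, 1.79 in F592A 1 and 1.16 in F592A 2, and in neighbouring spots at 0.223, 0.158, 0 and 0.246 CPM. Every section's members lay above every section's neighbours (log2 fold change 3.77 ± 0.55 SE, edgeR's adjusted p = 0.0281). The share of all genes with that order was not counted, here or for the genes below. In 13.8% of tested genes the members of all 4 sections stood above the neighbours of their own section. The Fcer1a levels of the members rest on 26, 12, 9 and 10 UMIs. Ms4a2, the beta chain that amplifies the signal, stood at 2.15, 2.55, 1.59 and 1.86 CPM in members and at 0.312, 0.0791, 0.202 and 0.328 CPM in neighbouring spots (3.03 ± 0.44, adjusted p = 0.0281 by edgeR). The members of all 4 sections again lay above all neighbours. Fcer1g, the gamma chain that macrophages and other immune cells share, stood at 185, 176, 192 and 219 CPM against 141, 148, 152 and 121 CPM, which did not pass the test (0.46 ± 0.10, adjusted p = 0.0648 by edgeR).

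The Mrgpr receptors mark connective tissue mast cells in the mouse. Mrgprb1 stood at 8.73 and 8.79 CPM in WT 1 and WT 2 members and at 2.79 and 4.77 CPM in F592A 1 and F592A 2, against 0.714, 1.11, 0.605 and 1.31 CPM in neighbouring spots. It rose in members of every section (2.73 ± 0.33, adjusted p = 0.0242 by edgeR). Mrgprb2, the receptor for peptides such as substance P, stood at 4.17, 4.86, 2.59 and 1.75 CPM in members and at 0.357, 1.11, 1.61 and 1.89 CPM in neighbours (1.51 ± 0.55, adjusted p = 0.187 by edgeR). It was higher in members in 3 of 4 sections, and F592A 2 went the other way.

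Kit, the receptor for stem cell factor, stood at 11.4, 10.9, 5.18 and 8.26 CPM in members and at 5.89, 6.49, 4.57 and 5.00 CPM in neighbouring spots. The members were higher in 4 of 4 sections, and the difference did not pass the test (0.68 ± 0.17, adjusted p = 0.0792 by edgeR). Cd200r3, a receptor of mast cells and basophils, rose (2.52 ± 0.43, adjusted p = 0.0342 by edgeR), on 34 member UMIs in all. Il1rl1, the IL-33 receptor, was at 19.6, 20.1, 13.1 and 15.7 CPM in members against 11.4, 20.2, 31.4 and 15.3 CPM, with no common direction.

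Among the mediators, Srgn, whose proteoglycan core packs the granules, rose from 64.8 to 79.2 CPM in the neighbouring spots of the 4 sections to 84.0 to 133 CPM in the members (0.53 ± 0.08, adjusted p = 0.0295 by edgeR). The macrophage and MHC class II lists had median log2 fold changes of 0.51 and 0.58 in the same comparison. The part of other cells in the Srgn rise was not tested. Hdc, the enzyme that makes histamine, stood at 4.43, 4.4, 2.39 and 2.68 CPM against 0.937, 1.11, 1.55 and 1.39 CPM. It was higher in members in 4 of 4 sections without passing the test (1.48 ± 0.34, adjusted p = 0.0702 by edgeR). The monoamine transporter Slc18a2 had 1.96 ± 0.50 (0.0858), the leukotriene C4 synthase Ltc4s 1.03 ± 0.25 (0.0802) and the 5-lipoxygenase gene Alox5 0.62 ± 0.15 (0.0775), all by edgeR. Slc18a2, too, passed the low-count filter through its member sums, so its value was favoured in advance. Of the tryptases outside the rule, Tpsab1 (2.99 ± 0.47, adjusted p = 0.0304) and Tpsg1 (2.33 ± 0.41, 0.0377) rose by edgeR. Tpsab1 is a close copy of Tpsb2, and reads of the pair may be split between them.

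The genes of mucosal mast cells were absent or nearly so. Mcpt1 and Mcpt9 gave 0 UMIs in the members of all 4 sections, and Mcpt2 gave 7 UMIs, all in F592A 2. The cytokine Il13 and the growth factors Il3 and Il9 also gave 0 UMIs in members, which allows up to 0.118 CPM at 3 UMIs over the members, and Il4 gave 2. Of the 8 basophil and eosinophil genes, Epx and Ear6 gave 0 UMIs in members, Mcpt8 3, Siglecf 4, Prg2 9, Ccr3 13 and Prss34 20. The Prss34 UMIs of members, 4, 11, 4 and 1 by section, stood against 0, 4, 0 and 1 in neighbouring spots. Against all other spots Prss34, a protease known from basophils, rose (3.62 ± 0.69, adjusted p = 0.0220 by edgeR), and it was not tested against neighbours. Prss34, too, passed the low-count filter through its member sums. Il6ra, which other cells also express, stood at 29.0, 25.5, 23.8 and 26.2 CPM in members and did not pass in either comparison. The part of basophil RNA in the mast cell values was not tested.

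Of the mast cell regulators, Gata2 stood at 8.98, 14.8, 3.98 and 5.82 CPM in members and at 5.17, 5.78, 3.49 and 4.84 CPM in neighbours. It was higher in members in 4 of 4 sections and did not pass (0.70 ± 0.22, adjusted p = 0.137 by edgeR). Mitf was at −0.08 ± 0.09 (0.684). Of the niche signals, the Kit ligand gene Kitl had 0.37 ± 0.10 (0.100), the alarmin Il33 0.34 ± 0.08 (0.0729) and the chemokine Cxcl12 0.31 ± 0.08 (0.102) by edgeR. All 3 were higher in members in 4 of 4 sections without passing the test.

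**Figure D3:**
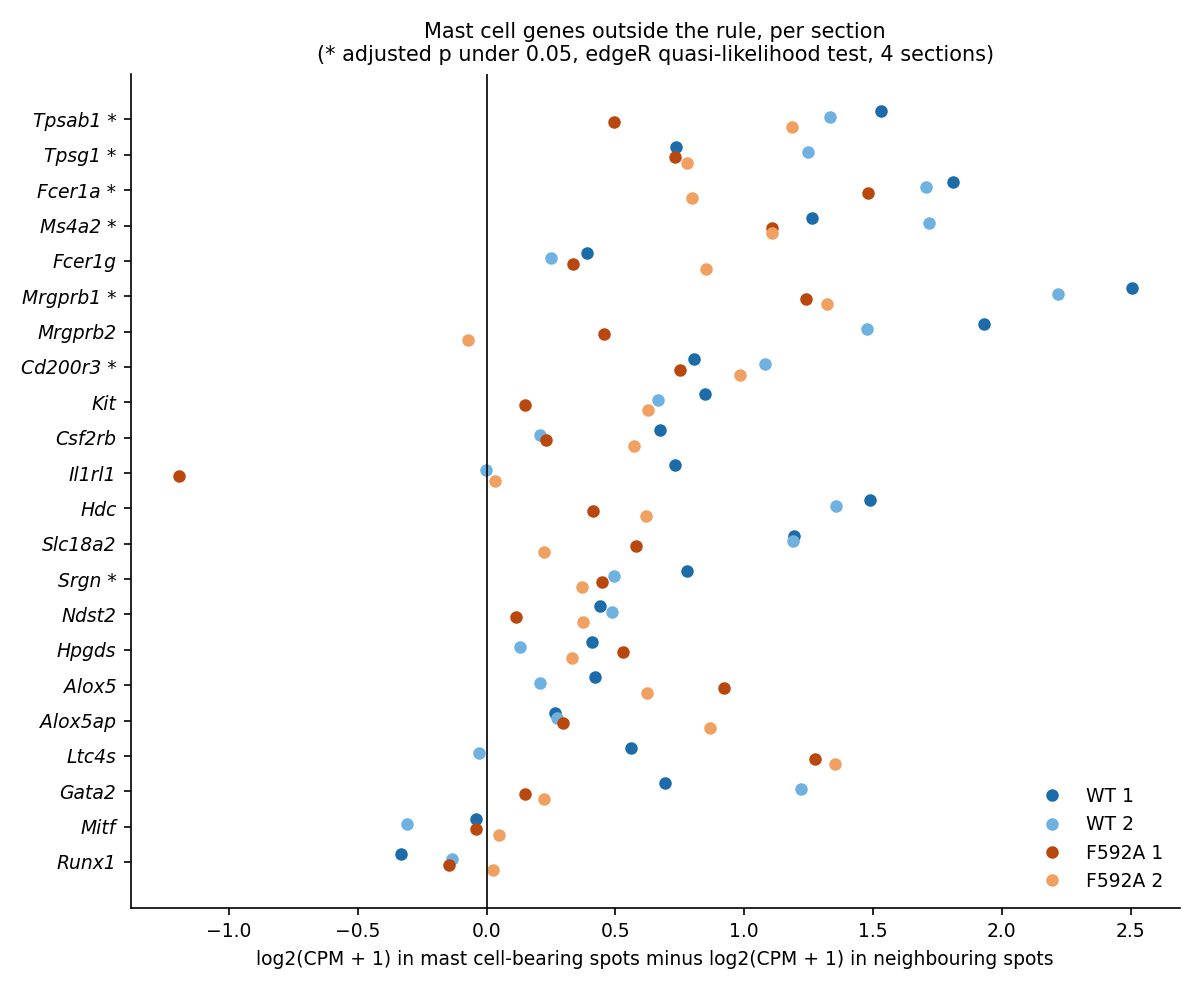
Difference in log2(CPM + 1) between members and neighbouring spots of the same section for 22 mast cell genes outside the rule, with each point a section. An asterisk marks an adjusted p under 0.05 by edgeR's quasi-likelihood test. Fcer1a, Ms4a2 and Mrgprb1 lie to the right of 0 in all 4 sections, while Mrgprb2 lies left of it in F592A 2 and Il1rl1 scatters on both sides.

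Mast cell RNA was concentrated in the members and was low 1 grid step away. The 4 rule genes together stood at 328 CPM in members of all sections and at 26.3, 17.8, 14.8, 13.3 and 17.0 CPM at 1, 2, 3, 4 and 5 or more steps from the nearest member, where the rule limits them. For a measure outside the rule, 8 mast cell genes were added up (Tpsab1, Ms4a2, Fcer1a, Hdc, Mrgprb1, Mrgprb2, Slc18a2 and Cd200r3, chosen after their values were seen and so given as a description). They stood at 22.1 CPM in members and at 5.42, 3.15, 3.58, 2.99 and 5.33 CPM at the same distances. The sum at 1 step was about that at 5 or more steps, but this rested on Mrgprb2. It gave 67 of the 147 UMIs at 5 or more steps and 36 of the 179 at 1 step. Each of the other genes of the sum stood higher at 1 step than at 5 or more steps.

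Over all sections the same sum was higher at higher rule sums. It stood at 3.88 CPM in spots with no rule gene UMI, at 4.86 CPM at a sum of 1, 6.25 at 2, 10.2 at 3, 11.3 at 4 to 9 and 38.4 CPM at 10 or more. From a sum of 3 to one of 4 to 9 it was higher in both WT sections (7.35 to 13.9 and 12.1 to 12.3 CPM) and lower in both F592A sections (12.6 to 9.70 and 12.9 to 9.70 CPM). In every section spots just inside the rule held less of these markers per UMI than members with a sum of at least 10. In members with a sum of at least 10 the 8 genes stood at 63.1 and 58.5 CPM in WT 1 and WT 2 and at 15.3 and 26.1 CPM in F592A 1 and F592A 2. As UMIs per spot these were 2.32, 1.90, 1.35 and 2.26, and on that scale WT 2 lay below F592A 2.

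**Figure D4:**
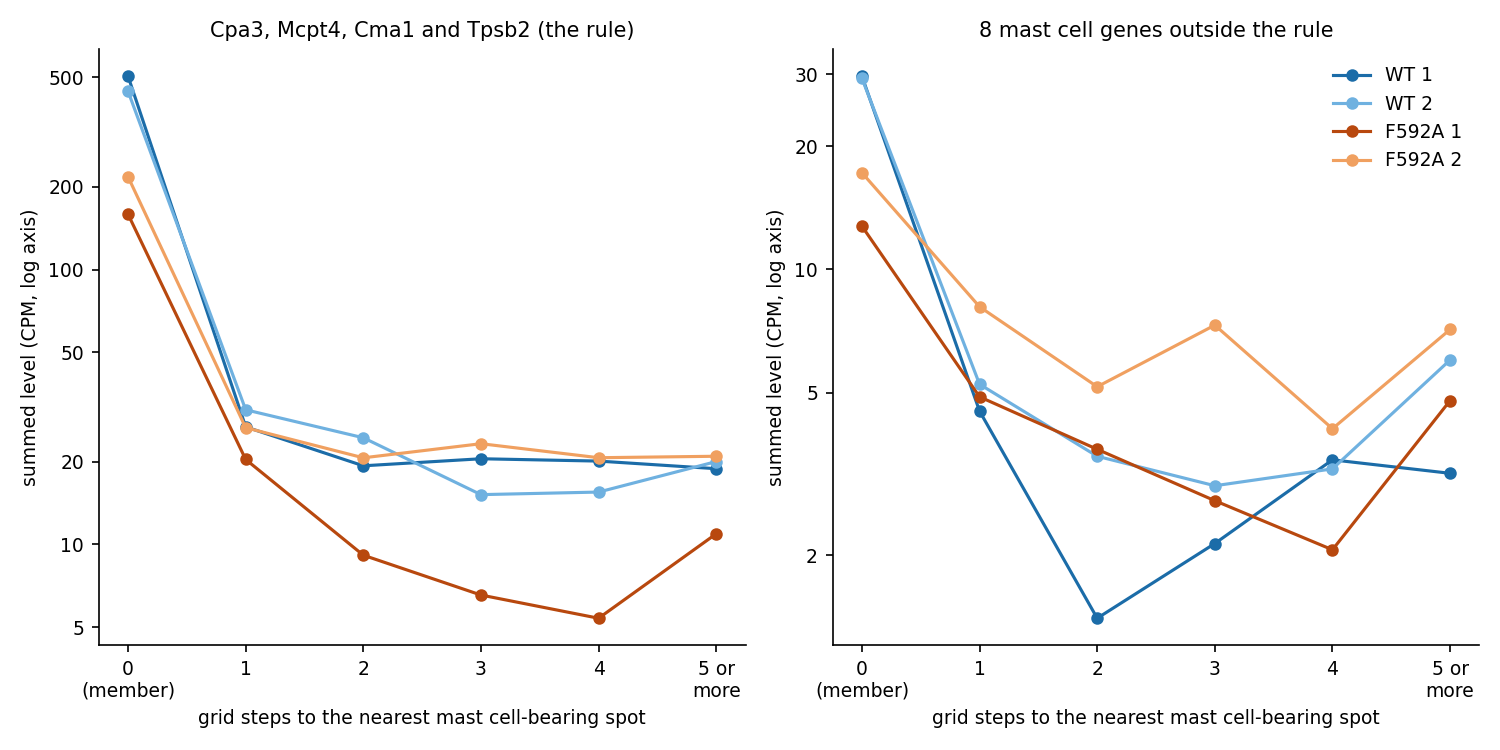
Summed level in CPM, on a log axis, of the 4 rule genes (left) and of 8 mast cell genes outside the rule (right) against the distance in grid steps to the nearest member, with a line per section. Over all sections the 8 genes drop from 22.1 CPM in members to 5.42 CPM 1 step away, and do not fall steadily beyond that.

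Members lay in tissue richer in antigen-presenting and endothelial RNA than the neighbouring spots. Of 7 tested MHC class II genes, which present antigen to T helper cells, 6 rose, and of 9 endothelial genes 5 rose. Of 12 macrophage genes 2 rose (Csf1r and Mrc1), of 9 adipocyte genes 4, of 8 mural genes 1 (Notch3), of 12 Schwann cell and myelin genes 1 (Scn7a) and of 11 adventitial fibroblast genes 1 (Col14a1). The medians of these lists lay between 0.28 for mural genes and 1.00 for Schwann cell genes, against −0.00 over all genes. As in the whole comparison, no call in these lists was left without F592A 1.

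Cd74, the class II invariant chain, stood at 1400 and 1113 CPM in WT 1 and WT 2 members and at 654 and 772 CPM in F592A 1 and F592A 2. In their neighbouring spots it was 850, 829, 426 and 466 CPM. It rose within each section (0.62 ± 0.08, adjusted p = 0.0245 by edgeR), while the WT neighbours lay above the F592A members. H2-Ab1 (0.61 ± 0.08) and H2-Aa (0.58 ± 0.08) rose likewise. Per spot, the median level of the class II list was 2633 against 1469 CPM in WT 1, 2188 against 1337 in WT 2, 1278 against 762 in F592A 1 and 1745 against 900 in F592A 2. The typical member, and not only a few, thus stood above the typical neighbour. Csf1r, the receptor that maintains macrophages, was at 152, 160, 183 and 222 CPM in members against 114, 115, 122 and 106 CPM (0.64 ± 0.11, adjusted p = 0.0347 by edgeR).

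Endothelial genes rose by less. Pecam1, an adhesion molecule of endothelial junctions, stood at 140, 115, 129 and 105 CPM in members and at 95.1, 94.0, 95.7 and 75.4 CPM in neighbours (0.44 ± 0.07, adjusted p = 0.0295 by edgeR). Esam (0.51 ± 0.07) and the tight junction gene Cldn5 (0.59 ± 0.12) rose too, and the pericyte receptor Notch3 had 0.65 ± 0.10 (adjusted p = 0.0295 by edgeR). For Pecam1 all 4 member values lay above all 4 neighbour values.

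Nerve RNA was uneven. The Schwann cell and myelin list summed to 5391 CPM in members against 1111 CPM in neighbours of WT 1, 1640 against 762 in WT 2, 436 against 375 in F592A 1 and 565 against 414 in F592A 2. Scn7a, a sodium channel of non-myelinating Schwann cells, was alike in all sections at 57.3, 37.3, 57.9 and 52.4 CPM against 34.7, 28.0, 36.4 and 29.0 CPM (0.68 ± 0.08, adjusted p = 0.0242 by edgeR).

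The myelin sums of the WT sections rested on few spots. The 10 members with the most RNA of the list held 55.8%, 72.3%, 40.6% and 33.0% of the members' list UMIs (WT 1, WT 2, F592A 1, F592A 2). The median member stood at 593, 484, 403 and 381 CPM of the list and the median neighbour at 466, 409, 312 and 262 CPM. In both WT sections the medians differed by a smaller factor than the sums, and in both F592A sections they did not. In WT 1, 136 spots had at least 5000 CPM of the list, and 42 of them were members (30.9%), against 7.80% of the spots below that level. In WT 2 it was 5 of 26, in F592A 1 0 of 21 and in F592A 2 2 of 10.

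Adipocyte genes rose in the sums, but the median member lay above the median neighbour only in WT 1 and F592A 1. Adipoq, the fat hormone adiponectin, stood at 24.9, 29.2, 72.7 and 55.7 CPM in members and at 8.74, 18.1, 16.5 and 24.1 CPM in neighbours (1.41 ± 0.20, adjusted p = 0.0272 by edgeR). The F592A 2 neighbours came close to the WT 1 members. Cfd, the complement factor adipsin, had 1.62 ± 0.26, the hormone Retn 1.26 ± 0.20 and the lipid droplet protein Plin1 1.22 ± 0.24. The median member and neighbour had 501 and 430 CPM of the list in WT 1, 315 and 320 in WT 2, 490 and 393 in F592A 1 and 477 and 559 in F592A 2. Of the members' adipocyte UMIs, 40.5% to 69.3% lay in 10 spots.

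Some genes of the epidermis, muscle and scar fell in members. Of 11 keratinocyte genes 3 fell, of 13 fast muscle genes 1 (Myh2), of 8 scar and myofibroblast genes 2 (Tnc and Col12a1), and 1 tenocyte gene and 1 cartilage gene fell. The summed lists did not all follow. The keratinocyte sum was 0.960, 0.688, 0.530 and 0.329 times that of the neighbours (WT 1, WT 2, F592A 1, F592A 2), whereas the fast muscle sum was 0.690, 0.660, 1.31 and 0.386 times and the scar sum 0.876, 1.05, 1.00 and 1.27 times. Krt10, a keratin of the upper epidermis, stood at 296, 53.5, 190 and 104 CPM in members and at 448, 127, 399 and 400 CPM in neighbours (−1.21 ± 0.19, adjusted p = 0.0300 by edgeR). With a minimum of 10000 UMIs per spot it was at −0.65 with an adjusted p of 0.14 by edgeR. Tnc, the wound matrix protein tenascin C, stood at 490, 453, 478 and 538 CPM against 794, 574, 797 and 816 CPM, with no overlap between members and neighbours (−0.60 ± 0.09, adjusted p = 0.0281 by edgeR). Col12a1, a fibril-associated collagen, stood at 1214, 1192, 1237 and 961 CPM against 2058, 1630, 1677 and 1625 CPM (−0.60 ± 0.09, adjusted p = 0.0295 by edgeR), also without overlap.

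**Figure D5:**
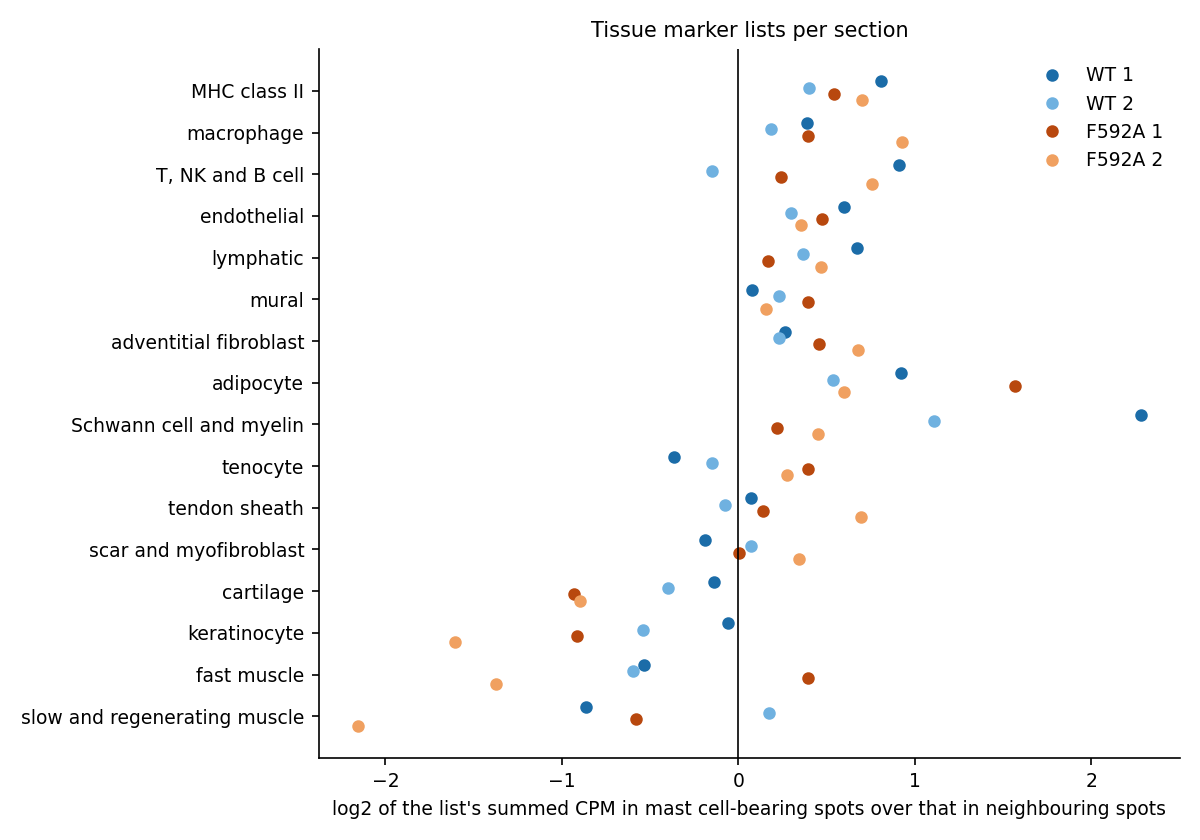
Log2 ratio of the summed CPM of 16 tissue marker lists in members over that in neighbouring spots, with each point a section. The class II, macrophage, endothelial, lymphatic, mural, adventitial fibroblast, adipocyte and Schwann cell lists lie above 0 in all 4 sections. The Schwann cell list is highest in WT 1, and the keratinocyte list is lowest in F592A 2.

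Beyond the lists, the genes with the largest rise over neighbouring spots, after Fcer1a, Ms4a2 and Mrgprb1, included Cyp11a1 and Kcna6. Cyp11a1, the enzyme that starts steroid synthesis from cholesterol, stood at 5.69, 4.4, 1.79 and 2.91 CPM in members and at 0.847, 1.03, 0.806 and 0.738 CPM in neighbours. All 4 member values lay above all 4 neighbour values (2.08 ± 0.32, adjusted p = 0.0300 by edgeR). The potassium channel gene Kcna6 had 1.99 ± 0.28, Serpina3c 1.72 ± 0.32, Pllp 1.61 ± 0.31 and Myoc 1.26 ± 0.24, each higher in 4 of 4 sections. A chemokine row named Ccl19 rose by 2.04 ± 0.31, but this symbol stands on more than 1 row of the files and its count is uncertain. Cyp11a1, Kcna6 and the Ccl19 row, too, were so low in neighbouring spots that the low-count filter kept them through their member sums. Their calls were thus favoured in advance and are given as a description. Pllp, a myelin membrane protein, stood at 33.5 CPM in WT 1 members and at 6.94, 1.39 and 1.05 CPM in the others.

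Among the genes that fell most were the epidermal genes Krt2 (−1.64 ± 0.32), Flg2 (−1.60 ± 0.26), Lce1b (−1.55 ± 0.30), Flg (−1.50 ± 0.26), Kprp (−1.46 ± 0.28) and Casp14 (−1.39 ± 0.22) and the hair keratin-associated gene Krtap3-2 (−1.65 ± 0.27). The muscle genes were Trdn (−1.46 ± 0.26), Myh2 (−1.41 ± 0.25) and Ankrd2 (−1.38 ± 0.27). The granzyme gene Gzmd (−1.37 ± 0.25) and the transcript AY036118 (−1.37 ± 0.20) were the others. All had 4 of 4 sections lower in members, as 12.6% of tested genes did.

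Members were also compared with all other eligible spots, and more genes passed. By edgeR 775 of 15496 genes were higher in members (5%) and 830 lower (5.36%), 10.4% in all, while 17.8% were higher and 17.9% lower in all 4 sections. All 7 class II genes rose, as did 10 of 12 macrophage genes, 8 of 11 adventitial fibroblast genes, 7 of 9 endothelial genes, 7 of 13 mast cell receptor genes and 7 of 10 mediator genes. Fcer1a, Ms4a2, Cd200r3, Slc18a2 and Tph1 were so low in the other spots that the low-count filter kept them through their member sums. Calls among them were favoured in advance, so the counts of mast cell genes are given as a description. Of 13 fast muscle genes 9 fell, and of 11 keratinocyte genes 7. Kit passed in this comparison (0.80 ± 0.17, adjusted p = 0.0280 by edgeR) as did Hdc (1.67 ± 0.39, 0.0367), while Gata2 did not (0.72 ± 0.22, 0.0782). Leaving out F592A 1, F592A 2, WT 1 or WT 2 left 666, 625, 1036 or 854 genes called, and spots of at least 10000 UMIs alone gave 895.

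Within members the groups were then compared, which asks whether places with mast cell RNA differed when TrkA could be inhibited. By edgeR 0 of 13514 genes passed (0%), with 1351 at an unadjusted p under 0.05, and DESeq2 called 151. edgeR called 50 genes without WT 1 and 82 without WT 2, and 0 without either F592A section (870 at an unadjusted p under 0.05 without F592A 1 and 752 without F592A 2). With a minimum of 10000 UMIs per spot 8 passed, and with a rule sum of at least 5, 3 passed. Both F592A sections lay above both WT sections in 21.7% of the tested genes and below them in 20.9%.

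The genes with the smallest p did not pass. Myoc stood at 29.6 and 28.7 CPM in WT 1 and WT 2 members and at 92.5 and 94.5 CPM in F592A 1 and F592A 2 (1.68 ± 0.12, adjusted p = 0.0536 by edgeR). The inducible cyclooxygenase gene Ptgs2 was at 3.45 and 3.26 against 20.5 and 18.6 CPM (2.53 ± 0.23, 0.0658), and the immediate early genes Nr4a1 (1.72 ± 0.16) and Ccn1 (1.56 ± 0.14) had the same adjusted p. On the other side stood Gpc3 (−1.75 ± 0.12, 0.0536), the growth factor Igf2 (−2.91 ± 0.26, 0.0658), Myh2 (−1.86 ± 0.20, 0.103) and the slow troponin Tnnc1 (−2.87 ± 0.31, 0.103). For each of these the groups did not overlap. In whole sections, where all spots were summed, Ptgs2 and Ccn1 were higher and Igf2 lower past the threshold of edgeR (2.36 ± 0.13, 1.44 ± 0.12 and −3.31 ± 0.29), with sums that include the members.

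Of the mast cell genes outside the rule, most receptors were lower in the F592A members without passing, while the other lists were mixed. The rule genes were lower there too, at 504, 445, 159 and 217 CPM (WT 1, WT 2, F592A 1, F592A 2). In the same order, the 8 genes summed above gave 221, 129, 66 and 146 UMIs in members, beside 3753, 1953, 821 and 1840 rule gene UMIs. The part of the rule gene level in the values below was not tested. Mrgprb1 stood at 8.81 and 8.86 CPM against 2.81 and 4.80 CPM (−1.17 ± 0.34, adjusted p = 0.376 by edgeR). Gata2 (−1.23 ± 0.36, 0.376), Fcer1a (−1.09 ± 0.46, 0.504), Mrgprb2 (−1.08 ± 0.41, 0.482), Hdc (−0.79 ± 0.36, 0.531) and Kit (−0.70 ± 0.29, 0.498) also had both F592A sections below both WT sections. Of 13 tested receptor genes 7 had that order and 2 the opposite one, against 20.9% and 21.7% of all genes. Of 9 mediator genes 3 lay below and 4 above, of 6 regulators 2 and 1, and of 7 niche genes 1 and 0. The leukotriene genes went the other way: Ltc4s stood at 4.72 and 3.26 CPM against 15 and 12.5 CPM (1.74 ± 0.29, adjusted p = 0.181 by edgeR), and Alox5 at 7.27 and 8.63 against 15.2 and 20.6 CPM (1.20 ± 0.24, 0.255). Macrophages also express both genes, and 11 of 12 macrophage list genes had both F592A sections above both WT sections in members, among them Folr2 (1.48 ± 0.20, 0.120). The part of macrophage RNA in the leukotriene values was not tested.

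Tissue lists were compared between the groups in the same members. Of all tested genes 20.9% had both F592A sections below both WT sections. In members 11 of 12 Schwann cell and myelin genes were lower in both F592A sections than in both WT sections, and 0 passed the test. All 7 class II genes were negative and 6 had the groups apart, with Cd74 at −0.82 ± 0.19 (0.310). In whole sections, members included, 7 of 7 class II genes and 10 of 12 Schwann cell genes had that order, against 22.4% of all genes. Nerve RNA of the sections thus moved with these member values, and its part in them was not tested.

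In whole sections, a comparison that does not use the choice of spots, edgeR called 13 of 16347 genes (0.0795%), 5 higher in F592A (0.0306%) and 8 lower (0.0489%), and none was a mast cell gene. Mcpt4 stood at 38.9 and 31.4 CPM in WT 1 and WT 2 and at 10.9 and 24.2 CPM in F592A 1 and F592A 2 (−1.01 ± 0.36, adjusted p = 0.384 by edgeR). Cma1 was at 32.6 and 25.9 against 7.67 and 17.8 CPM (−1.21 ± 0.38, 0.332), and Tpsb2 at 21.1 and 22.0 against 6.82 and 15.2 CPM (−0.97 ± 0.35, 0.386). For these 3 genes the groups did not overlap, as in 22.4% of all tested genes with F592A below. Cpa3, at 11.6 and 7.47 against 2.88 and 7.91 CPM (−0.83 ± 0.48, 0.569), overlapped. Of all called genes the count was 0 without either F592A section by edgeR (1448 at an unadjusted p under 0.05 without F592A 1 and 842 without F592A 2), 400 without WT 1 and 407 without WT 2, and DESeq2 called 416 on all 4 sections.

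Whether the step from neighbouring spots to members differed between the groups was tested as an interaction. By edgeR 0 of 14646 genes passed (0%), with 1487 at an unadjusted p under 0.05, and DESeq2 called 28. Leaving out a section gave 2 calls without WT 1, 32 without F592A 2, 51 without WT 2 and 166 without F592A 1, and a minimum of 10000 UMIs gave 68. For mast cell genes the values were −1.34 ± 0.51 for Mrgprb1 (adjusted p = 0.441 by edgeR), −2.52 ± 0.65 for Mrgprb2 (0.275), −1.33 ± 0.51 for Hdc (0.433) and −0.37 ± 0.32 for Kit (0.747). Ranked by the difference in log2(CPM + 1) between members and neighbours, 7 of 13 receptor genes had both F592A sections below both WT sections and 0 above, and of 10 mediator genes 4 lay below and 3 above. Over all tested genes it was 19.8% below and 21.1% above. The rule genes, left out of the test, also stood lower in the F592A members, and their part in these values was not tested.

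The smallest interaction p-values belonged to genes of other tissues. The interaction was 2.85 ± 0.27 for Chodl and 1.41 ± 0.15 for Ifi27l2a, an interferon-inducible gene, and the hair keratin Krt86 stood at −2.01 ± 0.21, each with an adjusted p of 0.0615 by edgeR, which did not pass. Ifi27l2a was at 60.6 and 112 CPM in WT 1 and WT 2 members and at 368 and 409 CPM in F592A 1 and F592A 2, over neighbours at 41.9, 100, 104 and 126 CPM. Members stood above their neighbours in all 4 sections, by more in F592A. The myelin gene Mbp had −2.29 ± 0.37 (0.119) by edgeR, with members at 568 and 175 CPM in WT 1 and WT 2 and at 11.9 and 27.8 CPM in F592A 1 and F592A 2.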

How the data were processed

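The data were Visium libraries of 4 tissue sections, 2 per group. Space Ranger 1.3.0 wrote the deposited counts, per the file headers. The build mm10 and Seurat 3 are named in the submitters' processing notes. The authors deposited raw UMI counts per gene and spot for 32285 genes, without normalization, and the barcodes were tested to be the spots marked as under tissue. The members and the 27 gene lists were chosen with earlier results of these data known.

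UMI counts were summed per section over members, neighbouring spots (within 2 grid steps), other spots or all spots, since spots are not replicates. Sums were tested with edgeR 4.0.16 on R 4.3.3 (TMM scaling, filterByExpr, quasi-likelihood test, Benjamini-Hochberg adjustment over all tested genes, threshold 0.05). The section was a block wherever both sums came from the same section. The 4 rule genes counted toward library size but were left out of these tests, except in whole sections. Values ± are log2 fold changes with SE. CPM of single genes use TMM factors, and CPM of sums over genes do not. Residual degrees of freedom were 2 or 3 per gene. Genes were named when among the 12 largest changes per direction past the threshold, with the same sign in all 4 sections and at least 50 member UMIs. The group comparisons were filled to 4 per direction by smallest p. Any gene of the mast cell lists, and up to 4 of each other list, could be named. In counts simulated with 200 changed genes, 2-fold changes were recovered in 100% of cases for members against neighbouring spots (14464 genes, 10 false calls), in 63% for the groups within members (13324 genes, 11 false calls) and in 86% for the interaction (14457 genes, 6 false calls). The changed genes were drawn from those with a pooled level of at least 10 CPM. The recovered shares therefore do not cover the mast cell genes below that level. Simulated counts had the same level per gene in every section, apart from the changes made. Their spread came from a trend over genes. Differences between real sections are thus not covered either. Thinning was by the hypergeometric distribution. Results were recomputed with DESeq2 1.42.0, with RLE scaling, without the low-count filter, and with other minimums of UMIs and of the rule sum, neighbours within 1 step, other blocks, and each section left out. Promoters came from a RefSeq table. Python 3.11.15, numpy 2.4.6, pandas 2.3.3, scipy 1.17.1 and matplotlib 3.10.9 were used. Some items are not reported here.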

Additional observations from a re-analysis of the deposited data

How the results depend on the processing

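Minimums of 10000 UMIs, the crossed block and the levels without the highest spots were chosen after seeing the data. Members against other spots gave 1605 calls, and 473 with no replicate block (no section block), 1065 at a rule sum of at least 2, 895 at 10000 UMIs and 625 to 1036 with a section left out. Against neighbouring spots the 316 calls became 697 with no filter, 0 with no replicate block, 124 within 1 step, 599 and 487 at sums of at least 2 and 5, and 0 to 477 with a section left out. Of the 124, 120 were among the 316, and of the 697 all 316 were. The groups within members gave 0 calls, against 151 by DESeq2, 771 with no filter, 3 at a sum of at least 5, 8 at 10000 UMIs and 0 to 82 with a section left out. In whole sections the 13 calls became 416 by DESeq2, 5 by RLE scaling, 545 with no filter and 0 to 407 with a section left out. The interaction's 0 became 28, 260 with no filter, 14 within 1 step, 13 and 2 at sums of at least 2 and 5, 68 at 10000 UMIs and 2 to 166 with a section left out. The cause of these changes was not tested.

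Sections share replicate numbers that the labels do not tie to animals, and the deviations of same-numbered sections correlated at r = −0.136 over 16347 genes. With the number as a replicate block 4 genes passed within members and 7 in whole sections. With crossed pairs 84 and 181 passed.

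Reversed, in log2 fold change, was Il1rl1 in member spots against other spots (0.082 and 0.060 at sums of at least 2 and 5, −0.36 to 0.29 with a section left out, positive without F592A 1) and in member spots against neighbouring spots (0.0078 within 1 step, 0.13 and 0.066 at sums of at least 2 and 5, −0.40 to 0.28 with a section left out). Mitf was at 0.064 at a sum of at least 2 against other spots and at 0.085 and 0.052 at sums of at least 2 and 5 against neighbours, and Myh4 at 0.036 at 10000 UMIs. In the group by membership interaction these were Ms4a2 (0.33 within 1 step, 0.75 at 10000 UMIs), Kit (0.10 at a sum of at least 5), Fcer1a (0.66 at 10000 UMIs, −1.70 to 3.45 with a section left out, positive without F592A 2) and Cd74 (−0.052 to 0.23, negative without WT 2).

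The share of member spots differed by −3.97 percentage points (F592A minus WT), and by −6.39 and −2.11 at sums of at least 2 and 5, −6.35 at 10000 UMIs, −4.97 at 2000 UMIs and −4.78 to −3.15 with a section left out. The thinned share of spots with a mast cell UMI differed by −3.10, by −4.90 at 2000 and −8.83 at 5000 UMIs, and by −3.78 to −2.43 with a section left out. Many mast cell genes rest on under 100 member UMIs, which limits their precision.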

Other observations

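The top 25% of spots in each section by a marker list held different shares of members, given here as a description. For the class II list 22.3%, 18.8%, 8.23% and 13.4% of the top 25% were members (WT 1, WT 2, F592A 1, F592A 2), against 4.34%, 4.53%, 2.17% and 2.62% of the rest. At an equal depth of 1000 UMIs, 12.3%, 12.1%, 6.21% and 7.43% of the top 25% would hold a rule gene UMI, against 5.74%, 5.74%, 2.71% and 4.10% of the rest. For the list of adventitial fibroblasts, cells of the loose tissue around vessels, the thinned shares were 12.3%, 9.93%, 6.80% and 7.42% against 5.75%, 6.47%, 2.51% and 4.10%. For tenocyte genes the order was the reverse, with 4.87%, 5.49%, 2.40% and 3.92% in the top 25% against 8.23%, 7.95%, 3.98% and 5.27%, although unthinned 9.57% and 8.60% of WT 1 spots were members in the top 25% and the rest. The tendon-rich spots were deeper, with a median of 17846 UMIs in the top 25% of WT 1 against 5120 in the rest.

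The scar and myofibroblast list changed in the same way with thinning. Unthinned, 17.6%, 14.4%, 6.52% and 13.0% of the top 25% were members against 5.94%, 6%, 2.74% and 2.77% of the rest. At 1000 UMIs per spot the shares with a rule gene UMI were 7.15%, 6.0%, 2.03% and 5.16% against 7.47%, 7.78%, 4.10% and 4.86%, lower in the top 25% in all sections but F592A 2. For fast muscle genes the thinned shares were 3.27%, 6.38%, 3.03% and 3.52% against 8.77%, 7.65%, 3.77% and 5.40%, lower in the top 25% in 4 of 4 sections.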
